A study of Mus musculus with 4 samples.

Results

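Heart muscle nuclei in which no Nppb transcript was counted were compared between hearts with a conditional knockout (cKO) of Pkp2 and control hearts. The nuclei were chosen by measured values: at least 2000 unique molecular identifiers (UMIs, which count RNA molecules), at most 5% of UMIs from mitochondrial genes, at least 4% of UMIs from the sum of 7 cardiomyocyte genes, and 0 Nppb UMIs. The 7 genes were Ttn, Myh6, Ryr2, Tnnt2, Actn2, Mybpc3 and Ctnna3. Of 41706 barcodes in 4 single-nucleus libraries, 3740 nuclei met these limits: 977 in control 1, 1970 in control 2, 320 in cKO 1 and 473 in cKO 2. A further 2647 nuclei met the first 3 limits and had Nppb UMIs.

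Each library was a pool of whole hearts from 2 mice, 1 male and 1 female, aged 8 weeks, and the hearts were taken 2 weeks after tamoxifen. The control mice were titled MCM cre/+, with the genotype tag wt, and the cKO mice PKP2fl/fl MCM cre/+. The titles thus give the Cre allele to both groups, and other labels give tamoxifen to both. MCM is not spelled out in the labels, and the cells in which this Cre acts are not given there. The replicate is the pool, with n = 2 per group, and the nuclei within a pool are not replicates. The nuclei were released with detergent, bound by an antibody to a nuclear pore protein and sorted, so the sort and the heart both bear on any share of nuclei.

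Nppb encodes B-type natriuretic peptide, a hormone that heart muscle makes under stretch and overload, and its RNA is a usual marker of stressed cardiomyocytes. Pkp2 encodes plakophilin 2, which anchors desmosomal cadherins to the cytoskeleton at the intercalated disc, the junction between neighbouring heart muscle cells. Stressed cardiomyocytes are known to raise genes of the fetal heart, among them Nppa, Myh7 and Acta1, and to use less fatty acid. The comparison asks which of these and other genes differed in nuclei where the stress marker itself was not counted.

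The values that chose the nuclei are given as a description. Nuclei without Nppb made up 73.8% of the cardiomyocyte nuclei of control 1 (95% exact binomial interval 71.3% to 76.1%) and 79.5% of those of control 2 (77.9% to 81.1%). They made up 29.1% in cKO 1 (26.4% to 31.8%) and 31.9% in cKO 2 (29.5% to 34.3%). These intervals cover counting error only. The choice by Nppb therefore kept most control nuclei and set aside most cKO nuclei. A count of 0 depends on depth, and the median nucleus had 3492 and 4152 UMIs in the controls and 4353.5 and 5175 in the cKO libraries. After each nucleus was thinned to 2000 UMIs the shares were 82.9%, 89.1%, 42.5% and 53.3%. Of the nuclei with at least 1 Nppb UMI, 34.6% and 46.7% in the controls and 19.0% and 31.5% in the cKO libraries were at 0 after that thinning. Among nuclei of other cell types, with under 1% of UMIs from the 7 genes, the share at 0 was 95.5%, 96.1%, 90.9% and 94.4% in control 1, control 2, cKO 1 and cKO 2. At the limit on the 7 genes, 235 of the chosen nuclei lay between 4% and 4.5%, and 112 nuclei without Nppb lay just outside, between 3.5% and 4%. Beside the limit on Nppb lay nuclei with exactly 1 Nppb UMI, which numbered 175 and 307 in the controls and 156 and 244 in the cKO libraries.

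**Figure D1:**
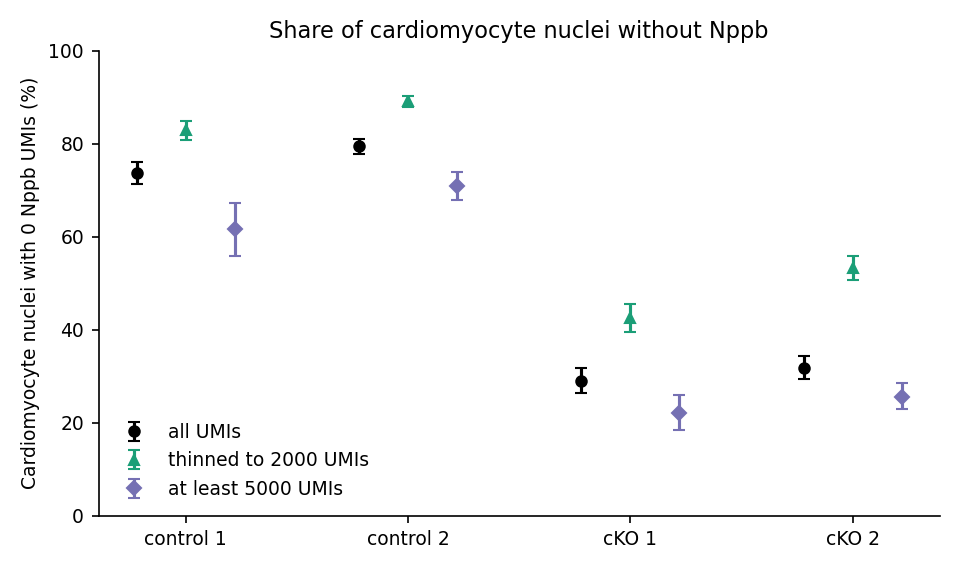
Share of cardiomyocyte nuclei with 0 Nppb UMIs (percent, vertical axis) in each of the 4 libraries, with all UMIs, after thinning to 2000 UMIs and among nuclei with at least 5000 UMIs; bars are 95% exact binomial intervals, which cover counting error. Both cKO libraries lie below both controls in each of the 3 series, and all libraries shift upwards when nuclei are thinned.

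The chosen nuclei carried the RNA of cardiomyocytes in all 4 libraries. CPM, counts scaled to a common library total, of Ttn, the giant spring protein of the sarcomere, were 11571 and 18190 in the controls and 12007 and 17404 in the cKO libraries. Myh6, the main myosin heavy chain of the adult mouse heart, stood at 15988, 14553, 17606 and 14902 CPM, and Ryr2, the calcium release channel, at 7568, 9398, 7293 and 8844 CPM, in the order control 1, control 2, cKO 1, cKO 2. That order is kept wherever 4 values follow each other below. Ttn, Myh6 and Ryr2 were among the genes whose sum chose the nuclei. Their high levels thus follow in part from that choice and do not check the cell type. Of the cardiomyocyte genes that played no part in the choice, 12 were summed, among them Tnni3, Myl2 and Pln. Their sum was 21792, 22376, 23545 and 24946 CPM, against 2765 to 2955 CPM in nuclei of other types, and 0 of the 12 passed the test between groups. Summed fibroblast markers stood at 402, 260, 448 and 255 CPM, endothelial markers at 322, 318, 343 and 367 CPM and mural markers at 65.2, 70.8, 98.6 and 85.7 CPM. Macrophage markers stood at 115, 110, 105 and 140 CPM. Lymphocyte, epicardial and adipocyte markers summed to at most 8.05 CPM in any library, with Nkg7 and Lep at 0 in all 4; glial markers stood at 37.0 to 60.5 CPM, and haemoglobin genes of red cells at 32.0 to 52.6 CPM. Of the markers in these lists of other cell types, 0 passed the test between groups. Markers of the conduction system, a list added after values were seen, summed to 135, 103, 174 and 221 CPM, and Ncam1 among them passed; the part of such nuclei in the results was not tested. Atrial markers summed to 4.23, 5.42, 8.05 and 11.4 CPM. The libraries shared 4 cell labels in all, and the chosen nuclei held 3786755, 9219109, 1490164 and 2624219 UMIs. Doublets were not removed.

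Of 12817 genes tested on counts summed per library, 49 were higher in the cKO (0.382%) and 96 were lower (0.749%) at an adjusted p under 0.05 in edgeR's quasi-likelihood test. An unadjusted p under 0.05 was found for 1236 genes. In all 145 called genes the groups did not overlap. With 2 libraries per group a gene can hardly pass while they overlap, so this adds no support. The smallest log2 fold change among the called genes was 0.74 in size, so smaller differences were not called at this depth. The median over all genes was 0.0035. Predicted or unnamed genes were 8 of the higher and 66 of the lower genes, and 16.2% of the genes tested. The counts depended on the nuclei admitted: 21 genes were higher and 61 lower among nuclei with at least 5000 UMIs, and 28 and 50 among nuclei without an Esr1 UMI. In the last set 20 of the named genes kept their direction but no longer passed. That set was smaller, with 77 and 79 nuclei in the cKO libraries.

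**Figure D2:**
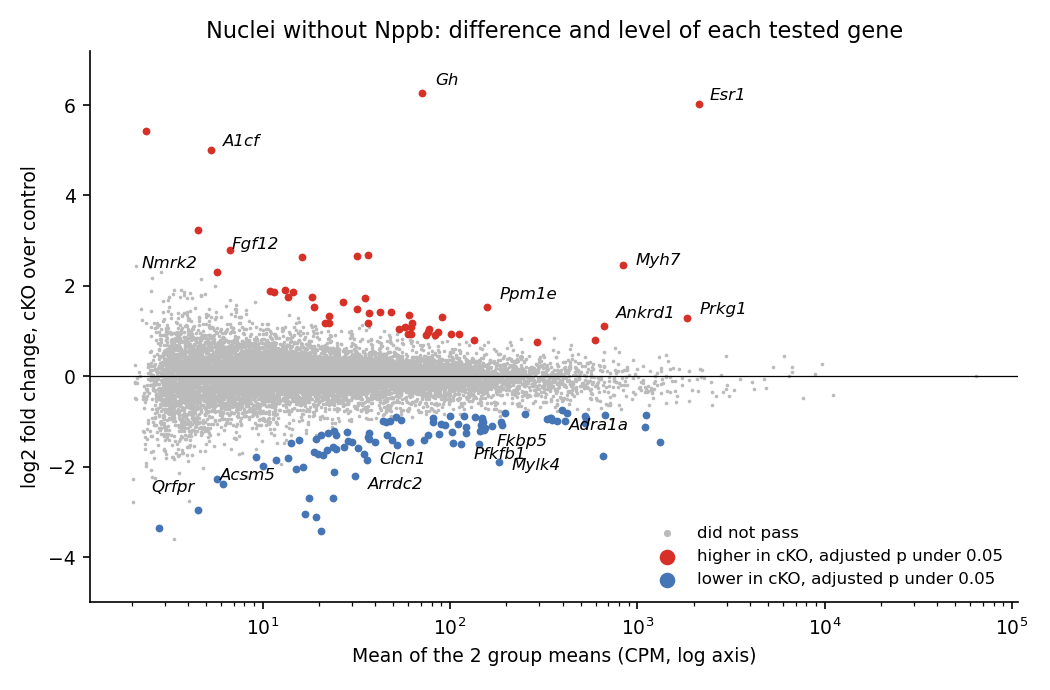
log2 fold change of cKO over control (vertical axis) against the mean level in CPM (horizontal log axis) for each of the 12817 genes tested in nuclei without Nppb. Red points are the 49 genes that were higher and blue points the 96 that were lower at an adjusted p under 0.05; Esr1 stands at 6.03 among the abundant genes and Mylk4 at -1.89.

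Esr1 and Gh separated the groups most. Tamoxifen-inducible Cre enzymes contain the hormone-binding part of an estrogen receptor, and many transgenes end in a growth hormone sequence, so reads of a transgene can be counted under these names. Esr1, the gene of estrogen receptor alpha, stood at 67.4 and 62.3 CPM in the controls and 4542 and 3907 CPM in the cKO libraries (log2 fold change 6.03, SE 0.22, adjusted p = 1.55e-09). Gh, the gene of growth hormone, stood at 3.20, 1.11, 175 and 106 CPM (log2 fold change 6.26, SE 0.38, adjusted p = 7.55e-07). At least 1 Esr1 UMI was counted in 12.1% and 15.1% of the control nuclei and in 75.9% and 83.3% of the cKO nuclei. Those cKO nuclei held 266 of the 267 Gh UMIs of cKO 1 and 281 of the 281 of cKO 2. The control libraries thus held few of these reads, although their titles name the same Cre. Where these reads came from was not tested, and the groups differ in them as well as in Pkp2, so that effects of either cannot be told apart.

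Pkp2, the targeted gene, was counted at 556 and 528 CPM in the controls and at 600 and 583 CPM in the cKO libraries. The difference was 0.13 on the log2 scale (SE 0.16, adjusted p = 0.917). The counts cover the whole gene and the labels do not say which exons the allele removes, so this level does not check the deletion.

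The stress programme was in part higher in the cKO, although Nppb was at 0 in every nucleus compared. Of its 16 tested genes, 4 rose and 0 fell: Myh7, Ankrd1, Acta1 and Nmrk2. The median log2 fold change of the list was 0.57, beside 0.0035 over all genes, and 13 members lay above 0 and 3 below. An unadjusted p under 0.05 was found for 9 of the 16, beside 1236 of all 12817 genes tested. Beside the counts here and in the lists below, 0.382% of all genes tested rose and 0.749% fell. No list was tested as a set. Ankrd1, a nuclear and sarcomeric repeat protein that rises with load, stood at 465 and 374 CPM in the controls and at 1029 and 786 CPM in the cKO libraries, with no overlap (log2 fold change 1.11, SE 0.19, adjusted p = 0.00844). The share of nuclei with an Ankrd1 UMI was 46.5% and 46.8% against 65.6% and 65.8%, so the level and this share moved in the same direction. Such a share also depends on depth. The median nucleus held 3492 and 4152 UMIs in the controls and 4353.5 and 5175 in the cKO libraries. Acta1, skeletal muscle actin of the fetal heart, stood at 13.9, 11.8, 36.1 and 28.7 CPM (log2 fold change 1.34, SE 0.26, adjusted p = 0.0222). Nmrk2, a kinase that feeds NAD synthesis, was sparse, at 2.40, 1.44, 12.5 and 6.42 CPM (log2 fold change 2.31, SE 0.52, adjusted p = 0.0493), and 3 nuclei held 63.2% and 41.2% of its UMIs in the cKO libraries. Nppa, atrial natriuretic peptide, stood at 5.33, 7.88, 11.2 and 15.9 CPM, and its log2 fold change of 1.01 missed the threshold (adjusted p = 0.285). Xirp2, Csrp3, Fhl2 and Cryab, which lie at the Z-disc or protect it, had log2 fold changes of 0.17, -0.07, -0.00 and -0.13. The Ankrd1 call was lost without control 2 (adjusted p = 0.0528), and those of Acta1 and Nmrk2 were lost without control 2 (0.0839 and 0.249) and without cKO 1 (0.0595 and 0.410).

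Myh7, the slow myosin heavy chain of the fetal ventricle, stood at 297 and 219 CPM in the controls and 1617 and 1213 CPM in the cKO libraries (log2 fold change 2.46, SE 0.21, adjusted p = 4.69e-05; GRCm38 chromosome 14, 54970684 to 54994626). Its level in the cKO nuclei differed by their Esr1 counts. In nuclei with neither Nppb nor Esr1 UMIs, Myh7 stood at 292, 208, 264 and 339 CPM, and the groups overlapped (log2 fold change 0.28, adjusted p = 0.779). In nuclei without Nppb but with Esr1 UMIs it stood at 330, 269, 2040 and 1384 CPM. The first set held 859, 1672, 77 and 79 nuclei and the second 118, 298, 243 and 394. Ankrd1 was higher in the cKO without Esr1 UMIs too: there it stood at 456, 373, 994 and 1052 CPM (log2 fold change 1.30, adjusted p = 0.00235), and Acta1 differed there too (2.02, adjusted p = 0.0105). Whether Myh7 and Esr1 UMIs came from the same transcripts was not tested. Myh7 and Myh6 are close copies, and reads could have been counted for either.

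**Figure D3:**
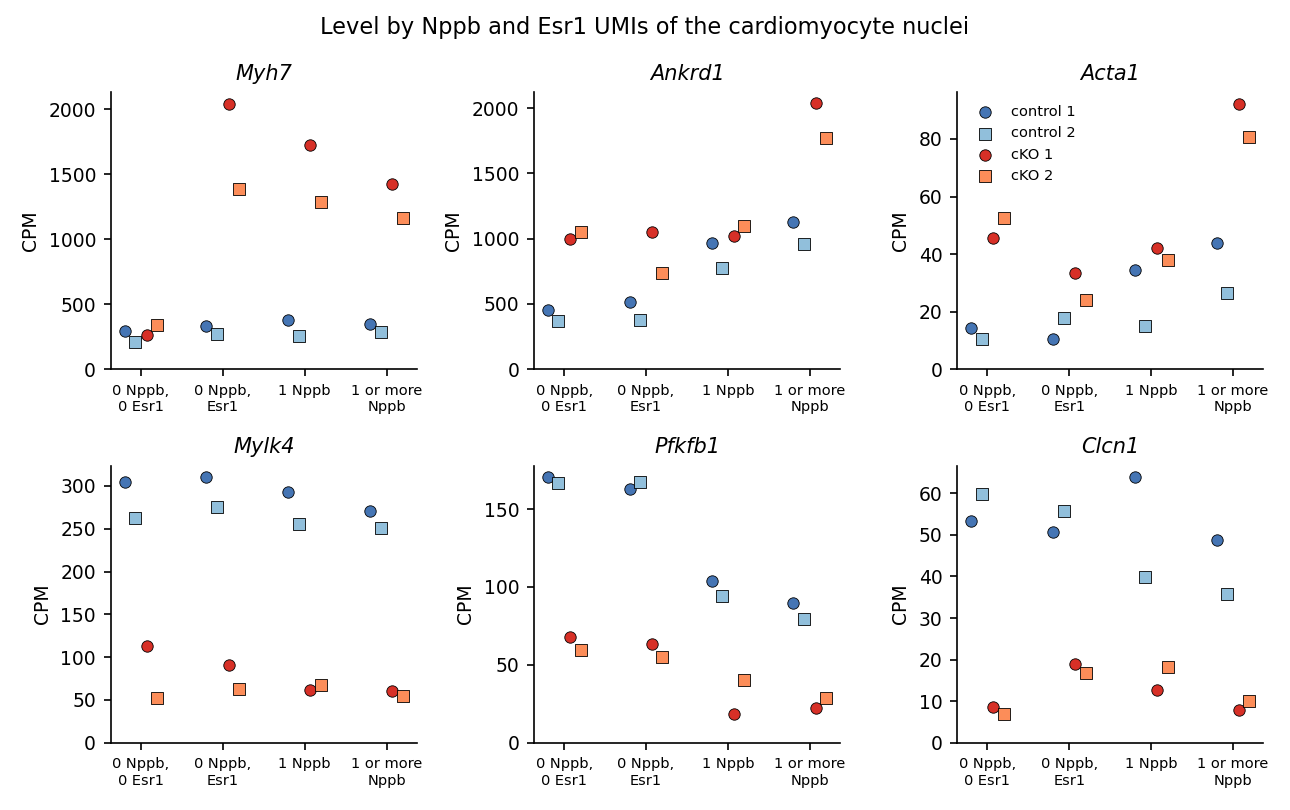
CPM in each library (vertical axes, linear, from 0) of Myh7, Ankrd1, Acta1, Mylk4, Pfkfb1 and Clcn1 in cardiomyocyte nuclei with 0 Nppb and 0 Esr1 UMIs, with 0 Nppb and at least 1 Esr1 UMI, with exactly 1 Nppb UMI and with 1 or more Nppb UMIs; each point is 1 library. Myh7 of the cKO lies at 264 and 339 CPM in the first class, where the groups overlap, and above 1100 CPM in the others, while Mylk4, Pfkfb1 and Clcn1 of the cKO lie below the controls in all 4 classes.

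Of 22 tested genes of the sarcomere and Z-disc, 0 rose and 1 fell, and the median log2 fold change was 0.05. The gene that fell was Mylk4, a kinase of the myosin light chain kinase family: it stood at 306 and 265 CPM in the controls and at 95.1 and 61.5 CPM in the cKO libraries (log2 fold change -1.89, SE 0.21, adjusted p = 0.000637; chromosome 13, 32700834 to 32783954). Mylk4 UMIs were counted in 54.6% and 53.7% of the control nuclei and in 23.8% and 22.0% of the cKO nuclei. Its cardiac relative Mylk3 had a log2 fold change of 0.28, ventricular light chain Myl2 of -0.35, cardiac actin Actc1 of 0.55 and troponin I gene Tnni3 of -0.49, none past the threshold. Among the genes used to choose the nuclei and not tested, Mybpc3 stood at 921, 837, 1382 and 1180 CPM, with no overlap. Tnnt2 stood at 17829, 10047, 14415 and 8750 CPM, with wide overlap. Actn2 had no overlap either, at 1211, 1265, 1348 and 1377 CPM. Ctnna3 was lower in the cKO with no overlap, at 6043, 6991, 4923 and 5725 CPM. These genes chose the nuclei, so their values are a description. Lack of overlap means little with 2 libraries per group. Of the 12 cardiomyocyte genes outside the rule, 7 had no overlap and 0 passed the test.

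Calcium cycling genes did not pass in either direction (0 of 16, median log2 fold change 0.01), and 3 of them had an unadjusted p under 0.05. Atp2a2, the calcium pump, Pln, its inhibitor, Casq2, the calcium store protein, and Cacna1c, the L-type channel, had log2 fold changes of -0.07, 0.11, 0.02 and 0.10. The farthest from 0 was Strit1, which encodes a small activator of the pump, at -1.30 (adjusted p = 0.122).

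Among 21 tested channels of potassium, sodium and chloride, 2 fell, with a median log2 fold change of -0.36 and 13 members below 0. Clcn1, a chloride channel best known from skeletal muscle, stood at 53.1 and 59.1 CPM in the controls and 16.4 and 15.1 CPM in the cKO libraries (log2 fold change -1.84, SE 0.24, adjusted p = 0.0014). Kcnv2, a silent subunit that modifies Kv channels, stood at 50.9, 45.0, 21.0 and 12.1 CPM (log2 fold change -1.59, SE 0.28, adjusted p = 0.00977). Without cKO 2 the Kcnv2 call was lost (adjusted p = 0.0755). Ano5, a membrane protein of the anoctamin family, had a log2 fold change of -1.94 that missed the threshold (adjusted p = 0.0549), and Kcnd3, which carries transient outward current, one of -0.64 (adjusted p = 0.114). The inward rectifiers Kcnj2 and Kcnj11 had log2 fold changes of 0.21 and 0.06.

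Fgf12, which binds sodium channels, rested on few nuclei. It stood at 3.47, 5.44, 14.4 and 41.5 CPM (log2 fold change 2.64, SE 0.42, adjusted p = 0.00607). In cKO 1, 20 of its 22 UMIs lay in 1 nucleus, and in cKO 2, 100 of 110 lay in 2 nuclei. These 3 nuclei had 6, 6 and 1 UMIs of Nppa, 4, 2 and 0 of the atrial light chain Myl4 and 0 of Esr1. Without nuclei that held an Nppa UMI, the log2 fold change of Fgf12 was -0.60 (adjusted p = 0.855), and without cKO 2 it was 1.62 (adjusted p = 0.110).

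At the intercalated disc 1 of 19 tested genes rose and 0 fell, with a median log2 fold change of 0.22. Gjc1, connexin 45 of gap junctions, stood at 41.1 and 36.1 CPM in the controls and at 95.1 and 78.5 CPM in the cKO libraries (log2 fold change 1.17, SE 0.20, adjusted p = 0.00844), and it passed under each of the 14 other settings in which it was tested. In nuclei of other types Gjc1 stood at 158, 135, 111 and 131 CPM, above its level in the chosen nuclei, with the cKO below the controls. Gja1, the main ventricular connexin, had a log2 fold change of 0.49, Ctnnb1, beta-catenin, of 0.91 (adjusted p = 0.0945) and Cdh2, N-cadherin, of 0.64. The desmosomal genes Dsp, Dsg2, Dsc2 and Jup had log2 fold changes of 0.17, -0.07, 0.20 and 0.25, with adjusted p from 0.839 to 0.957.

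Of 36 tested genes of fatty acid use, 0 rose and 1 fell, beside 0.382% and 0.749% of all genes tested. In this list 31 lay below 0, at a median log2 fold change of -0.21 beside 0.0035 over all genes. The one that fell was Acsm5, which activates medium-chain fatty acids in mitochondria: 29.6 and 23.2 CPM in the controls and 6.56 and 6.42 CPM in the cKO libraries (log2 fold change -2.01, SE 0.32, adjusted p = 0.00607). Cpt1b, Acadl and Cd36, which carry most fatty acid import and oxidation, had log2 fold changes of -0.10, 0.03 and -0.14. Ppara, a nuclear receptor that drives this pathway, had one of -0.59 (adjusted p = 0.130).

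Of 27 genes of glucose and glycogen use, 1 rose and 1 fell, at a median of 0.15. Pfkfb1, which sets the level of an activator of glycolysis, fell from 170 and 167 CPM in the controls to 64.3 and 55.9 CPM in the cKO libraries (log2 fold change -1.50, SE 0.18, adjusted p = 0.00086; chromosome X, 150588229 to 150643878). Nuclei with a Pfkfb1 UMI made up 37.7%, 42.3%, 21.9% and 20.1%. Pfkp, the platelet form of phosphofructokinase, rose from 42.7 and 42.5 CPM to 78.7 and 84.6 CPM (log2 fold change 0.94, SE 0.19, adjusted p = 0.023). Leaving out control 2 or cKO 2 ended the Pfkp call (adjusted p = 0.0812 and 0.119). Hk1, a hexokinase, had a log2 fold change of 0.78 (adjusted p = 0.0719), while Pfkm, the muscle form of phosphofructokinase, and Slc2a4, the insulin-dependent glucose transporter, had ones of -0.05 and 0.44. None of 22 nuclear genes of oxidative phosphorylation passed, with 1 at an unadjusted p under 0.05 and a median of -0.05.

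Of 16 YAP and load targets, Ankrd1 and Ccn2 rose and 0 fell, although the median was -0.11. Ccn2, a secreted matrix protein that YAP is known to induce, stood at 44.5 and 24.5 CPM in the controls and 102 and 72.5 CPM in the cKO libraries (log2 fold change 1.36, SE 0.27, adjusted p = 0.023). Ccn1 and Tgfb2 had log2 fold changes of 1.00 and 0.99 (adjusted p = 0.0861 and 0.105). Ccn2 was also the one of 19 secreted signals that passed. In nuclei of other types, with under 1% of UMIs from the 7 genes, Ccn2 stood at 158, 116, 672 and 377 CPM, above its level in the chosen nuclei and higher in the cKO there too. The part of RNA from those cells in the Ccn2 result was not tested. Without control 2 the Ccn2 call was lost (adjusted p = 0.0705), and without nuclei that held an Esr1 UMI its log2 fold change was 0.87 (adjusted p = 0.437).

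Of 15 genes of adrenergic and cAMP signalling, Adra1a fell and Prkar1a rose. Adra1a, the alpha-1A adrenergic receptor, stood at 467 and 522 CPM in the controls and 211 and 284 CPM in the cKO libraries (log2 fold change -0.99, SE 0.18, adjusted p = 0.0131). Prkar1a, a regulatory subunit of protein kinase A, stood at 76.2, 64.1, 143 and 125 CPM (log2 fold change 0.93, SE 0.18, adjusted p = 0.0195). Adrb1, the main beta receptor of the heart, had a log2 fold change of 0.26. Without cKO 1 both calls were lost (adjusted p = 0.150 for Adra1a and 0.0913 for Prkar1a), and without control 2 that of Prkar1a (0.157). Both were also lost without nuclei that held an Esr1 UMI (adjusted p = 0.123 and 0.204).

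Other regulatory lists showed single genes. Nr4a1, an orphan nuclear receptor of the immediate early class, rose from 8.53 and 7.99 CPM to 36.1 and 20.8 CPM (log2 fold change 1.75, SE 0.32, adjusted p = 0.0126). It was the one gene to pass of 12 immediate early genes. In nuclei of other types Nr4a1 stood at 17.1, 17.5, 23.9 and 39.9 CPM. Jun and Egr1, induced by handling of tissue as well as by stress, had log2 fold changes of -0.11 and -0.03. Hlf, a clock output factor, fell from 62.9 and 65.2 CPM to 29.5 and 34.7 CPM (log2 fold change -0.98, SE 0.21, adjusted p = 0.034) and alone passed among 14 clock genes, while Tef, its relative, had a log2 fold change of -0.68 (adjusted p = 0.0684). The core clock genes Clock and Per2 had ones of 0.34 and 0.25. The Nr4a1 call was lost without cKO 1 (adjusted p = 0.0559). The Hlf call was lost without control 2, cKO 1 or cKO 2 (adjusted p = 0.0815, 0.164 and 0.0604).

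In the lists of the integrated stress response (10 tested), p53 targets (12) and proteostasis (20), 0 genes passed in edgeR's test, with 1, 3 and 7 at an unadjusted p under 0.05. Their median log2 fold changes were 0.21, 0.21 and 0.18. Atf4 and Ddit3, factors of the integrated stress response, had values of 0.51 and -0.05, Cdkn1a, the p53 target that arrests the cell cycle, 0.61, and the muscle ubiquitin ligases Trim63 and Fbxo32 0.16 and 0.43. Trim54, another protein of that family, had a log2 fold change of -0.72 (adjusted p = 0.0554). Gdf15, a stress cytokine, was too sparse to test, with 5, 8, 7 and 3 UMIs.

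**Figure D4:**
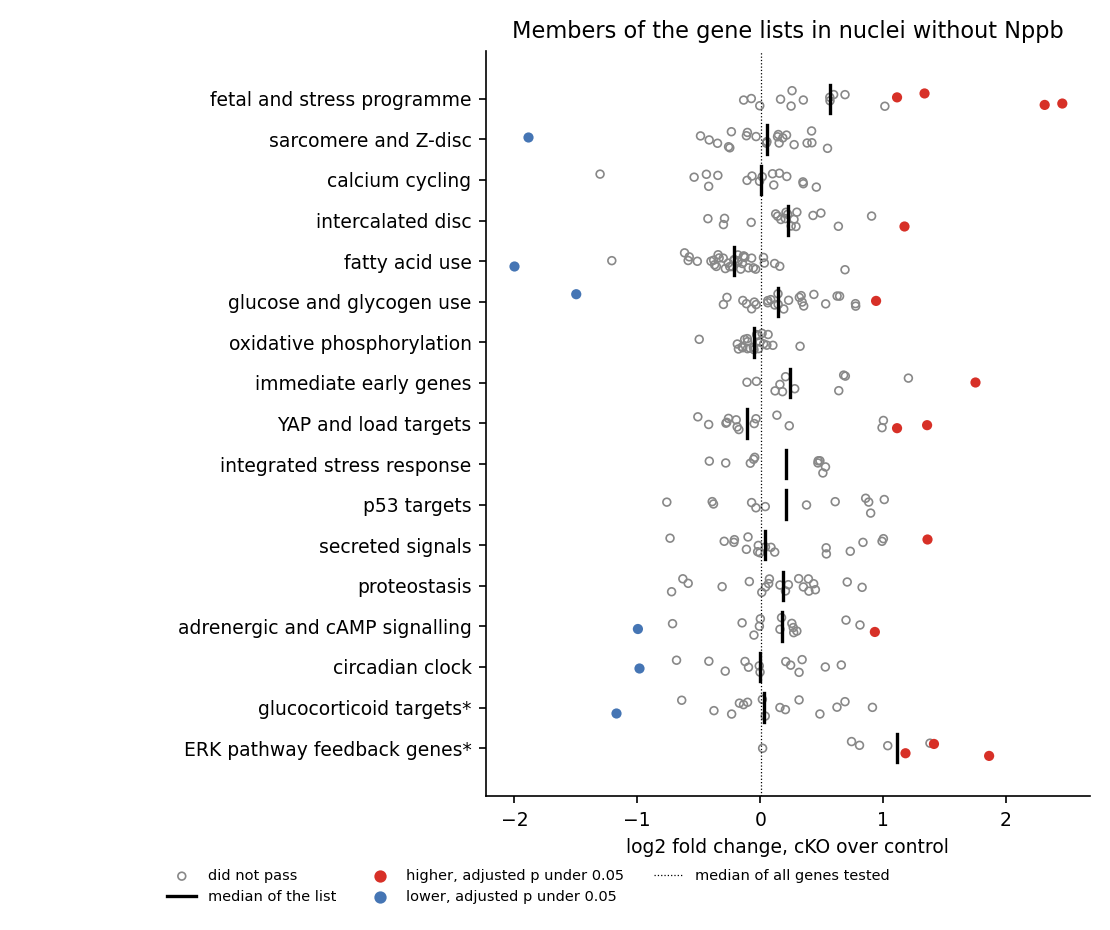
log2 fold change of cKO over control (horizontal axis) of each tested member of 17 gene lists in nuclei without Nppb; filled points passed at an adjusted p under 0.05, open points did not, thick bars are list medians and the dotted line is the median of all genes, 0.0035. Lists marked with an asterisk were added after values were seen. The stress programme has 4 filled points above 0 and a median of 0.57, while calcium cycling and oxidative phosphorylation have none filled.

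Further genes were named for the size of their difference. Among the highest were Etv5, a transcription factor induced by growth factor signalling (5.87, 6.43, 26.9 and 19.3 CPM, log2 fold change 1.86, adjusted p = 0.00896), and Phlda1 (30.1, 16.5, 76.1 and 46.4 CPM, 1.41, adjusted p = 0.0352). Both are on a list of 11 feedback genes of the ERK pathway that was added after values were seen; of its 8 tested members 3 rose (Etv5, Phlda1 and Spred1, the last by 1.18) and 0 fell, at a median of 1.11, and the list was chosen with these values known. Ppm1e, a protein phosphatase, rose from 76.0 and 86.3 CPM to 216 and 252 CPM (log2 fold change 1.53, SE 0.17, adjusted p = 0.000637). Pak3, a kinase that Ppm1e is known to oppose, rose too, from 4.53 and 4.77 CPM to 15.1 and 19.3 CPM (log2 fold change 1.89, SE 0.34, adjusted p = 0.0126). Ncam1, a cell adhesion molecule, stood at 5.60, 6.54, 26.2 and 16.6 CPM (log2 fold change 1.75), Igsf9b at 4.27, 6.32, 24.3 and 18.1 CPM (1.91), Hmgn3 at 11.5, 7.88, 34.1 and 21.5 CPM (1.53) and the non-coding Ctcflos at 16.8, 16.5, 49.9 and 44.5 CPM (1.50). A1cf, an RNA-binding factor of liver and gut, was counted with 0 and 4 UMIs in the controls and 12 and 34 in the cKO libraries. Of these cKO UMIs, 12 and 33 lay in nuclei with Esr1 UMIs, which were 75.9% and 83.3% of the cKO nuclei. The link to Esr1 was not tested. For Pak3, 3 nuclei held 60.9% of the UMIs of cKO 1, 27.5% of those of cKO 2 and 52.9% of those of control 1. Without control 2 the calls of Hmgn3 and Phlda1 were lost (adjusted p = 0.0941 and 0.0839). Without cKO 1 those of Hmgn3, Phlda1 and Ncam1 were lost (0.106, 0.0679 and 0.0734), and without cKO 2 that of Pak3 (0.0834).

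Among the genes that fell most, Arrdc2, an arrestin-domain protein, stood at 61.9 and 41.0 CPM in the controls and 9.84 and 11.7 CPM in the cKO libraries (log2 fold change -2.21, SE 0.29, adjusted p = 0.00177). Fkbp5, a chaperone that glucocorticoids induce, stood at 206, 217, 85.9 and 100.4 CPM (log2 fold change -1.18, SE 0.17, adjusted p = 0.00428). In nuclei of other types Fkbp5 stood at 397, 525, 237 and 309 CPM, above its level in the chosen nuclei and lower in the cKO there too; the part of RNA from those cells was not tested. It was the one gene to pass of 16 glucocorticoid targets in a list added after values were seen; Tsc22d3 and Per1 had log2 fold changes of 0.16 and 0.32. Among nuclei without an Esr1 UMI the Fkbp5 difference was -0.74 (adjusted p = 0.155), while Arrdc2 still passed at -2.01 (adjusted p = 0.0368). Cntn5, a neural adhesion molecule, fell from 187 and 236 CPM to 72.2 and 78.1 CPM (log2 fold change -1.49, SE 0.18, adjusted p = 0.00108). Spata31f1e fell by 1.45 on the log2 scale, Lgi1, a secreted protein of synapses, by 1.61, Alox5, the 5-lipoxygenase of leukotriene synthesis, by 1.85, and Qrfpr, a neuropeptide receptor, by 2.38. Clec18a, Ston2 and Sorcs2 fell by 1.31, 1.30 and 1.21. Without control 2 the calls of Qrfpr and Sorcs2 were lost (adjusted p = 0.0778 and 0.063). Without cKO 1 those of Ston2 and Sorcs2 were lost (0.152 and 0.0834), and without cKO 2 those of Qrfpr, Clec18a and Sorcs2 (0.193, 0.297 and 0.0913).

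**Figure D5:**
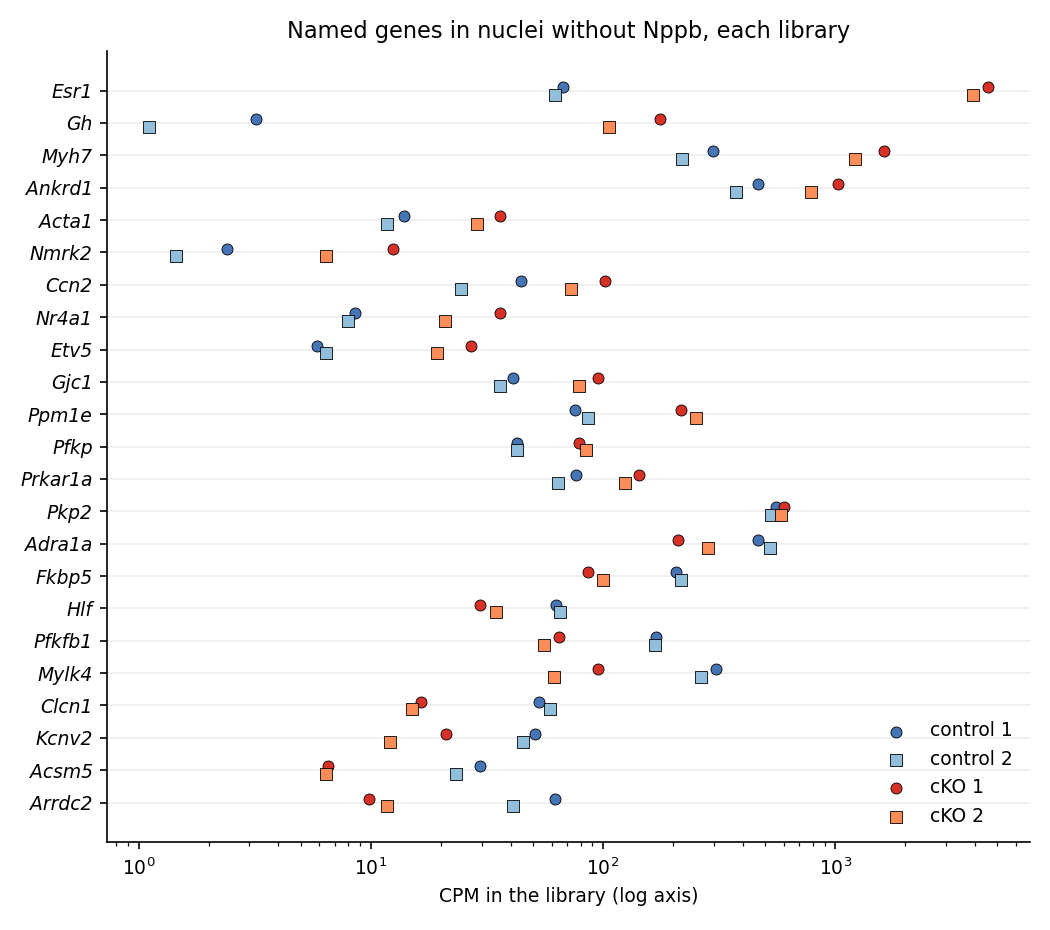
CPM of 23 named genes in nuclei without Nppb (horizontal log axis), with 1 point for each of the 2 control and 2 cKO libraries. The groups do not overlap in any of these genes. Of them 22 passed the test, and Pkp2, from 528 to 600 CPM in all libraries, did not pass.

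Nuclei with Nppb UMIs came from the same libraries, and the test of the difference between their cKO effect and that of nuclei without Nppb called 42 of 13893 genes (0.302%). The effect was higher with Nppb for 12 of them and lower for 30, and 869 genes had an unadjusted p under 0.05. Myh7 differed more in nuclei without Nppb: with Nppb it stood at 350, 284, 1426 and 1167 CPM, and the effect was lower by 0.43 on the log2 scale (adjusted p = 0.000391). Esr1 followed the same direction (90.8, 73.2, 3264 and 3171 CPM with Nppb, effect lower by 0.70, adjusted p = 1.76e-05). Dlg2, a membrane scaffold protein, stood at 50.7, 51.6, 44.0 and 47.9 CPM without Nppb and at 84.6, 77.1, 39.3 and 37.4 CPM with Nppb (difference of effects -0.92, adjusted p = 0.00525). Angpt1, a ligand for endothelial cells, stood at 190, 224, 191 and 234 CPM without Nppb and at 79.7, 117, 53.2 and 80.0 CPM with it (difference -0.61, adjusted p = 0.00792). Gadd45g, induced by stress and growth arrest, stood at 10.7, 8.54, 7.87 and 9.82 CPM without Nppb and at 12.4, 7.11, 22.7 and 33.2 CPM with Nppb (difference 1.73, adjusted p = 0.0129). Among nuclei with at least 5000 UMIs, 1 gene passed this test of the difference.

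Levels in the controls also differed between the classes, given here as values with no test. Ankrd1 stood at 465 and 374 CPM in control nuclei without Nppb, at 964 and 779 CPM in those with exactly 1 Nppb UMI and at 1124 and 956 CPM in those with 1 or more. In the cKO libraries the same classes held 1029 and 786, 1018 and 1100, and 2039 and 1771 CPM. The cKO nuclei without Nppb thus had Ankrd1 levels near those of control nuclei with 1 Nppb UMI. Pfkfb1 ran the other way, at 170 and 167 CPM in control nuclei without Nppb and 89.6 and 79.6 CPM in those with it, against 64.3 and 55.9 CPM and 22.0 and 28.8 CPM in the cKO. Mylk4 varied less with Nppb, at 306 and 265 against 271 and 251 CPM in the controls and 95.1 and 61.5 against 60.2 and 55.2 CPM in the cKO. Mylk4 also kept its difference among nuclei with neither Nppb nor Esr1 UMIs (305, 263, 114 and 52.7 CPM, log2 fold change -1.80, adjusted p = 0.00235), as did Pfkfb1 (170, 167, 68.1 and 59.6 CPM, -1.41, adjusted p = 0.00783).

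Promoter windows were searched for motifs of factors that act in heart muscle: M-CAT (CATTCC, bound by TEAD factors), the CArG box (bound by SRF), the MEF2 box and the estrogen-related receptor element (TNAAGGTCA), on both strands. A window held 300 bases, from 250 before to 50 after a transcript start, in RefSeq sequence of build GRCm38.p6. Of the 30 genes named for the largest differences, 21 had a window. M-CAT was found in 5 of 17 windows of the highest genes (29.4%; Esr1, Fgf12, Myh7, Nr4a1 and Pak3) and in 1 of 16 of the lowest (6.25%; Arrdc2), beside 14.7% of all 32851 windows. The MEF2 box was found in 1 window of the highest (Fgf12) and 3 of the lowest genes (18.8%; Clcn1, Mylk4 and Pfkfb1), beside 3.19% of all. The CArG box and the receptor element were found in 0 of these windows, beside 1.63% and 1.28% of all. The MEF2 matches of Mylk4 and Clcn1, with 1 window each, begin 103 and 51 bases before the start. Pfkfb1 has 4 windows, and the one nearest its annotated start holds no match. A match is a description of letters and no site or cause. Among the genes with M-CAT, reads counted as Esr1 may be those of a transgene, and Fgf12 rested on few nuclei.

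The windows below show these matches for genes that carry the result, with the matched letters in capitals: Mylk4 and Clcn1, which fell with a MEF2 box, and Ankrd1 and Acta1, which rose and were added after values were seen. Ankrd1 holds M-CAT on the reverse strand beginning 210 and 123 bases before its start. Acta1 holds a CArG box 73 bases and an M-CAT 46 bases before its start.
Mylk4, chr13:32783915-32784214, minus strand: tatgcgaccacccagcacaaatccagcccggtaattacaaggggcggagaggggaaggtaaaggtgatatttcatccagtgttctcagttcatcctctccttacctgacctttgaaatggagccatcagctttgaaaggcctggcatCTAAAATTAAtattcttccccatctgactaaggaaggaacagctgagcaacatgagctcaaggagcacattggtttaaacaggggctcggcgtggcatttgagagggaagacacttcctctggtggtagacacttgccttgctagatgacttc
Clcn1, chr6:42286435-42286734, plus strand: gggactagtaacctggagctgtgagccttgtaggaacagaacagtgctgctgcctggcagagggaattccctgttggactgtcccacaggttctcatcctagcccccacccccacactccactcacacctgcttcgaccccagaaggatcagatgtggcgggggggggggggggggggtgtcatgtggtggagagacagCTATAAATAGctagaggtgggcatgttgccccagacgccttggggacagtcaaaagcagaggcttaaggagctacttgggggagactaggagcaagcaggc
Ankrd1, chr19:36119795-36120094, minus strand: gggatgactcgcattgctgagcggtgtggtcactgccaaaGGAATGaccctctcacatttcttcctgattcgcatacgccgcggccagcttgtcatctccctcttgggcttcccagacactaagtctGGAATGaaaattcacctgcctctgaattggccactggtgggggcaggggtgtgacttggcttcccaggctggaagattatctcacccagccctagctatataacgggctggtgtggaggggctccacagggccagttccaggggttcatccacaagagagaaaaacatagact
Acta1, chr8:123894726-123895025, minus strand: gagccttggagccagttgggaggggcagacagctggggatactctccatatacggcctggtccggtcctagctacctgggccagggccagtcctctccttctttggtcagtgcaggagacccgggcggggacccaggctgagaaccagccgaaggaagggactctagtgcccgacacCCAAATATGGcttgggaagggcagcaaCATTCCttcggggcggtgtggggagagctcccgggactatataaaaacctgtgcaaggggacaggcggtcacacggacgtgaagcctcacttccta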

How the data were processed

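For each library 1 matrix of raw counts was deposited: whole numbers of UMIs for 44628 gene identifiers in each barcode, with no scaling, per the file headers. In the submitters' processing notes the build is mm10. Not given in the sources used here are the aligner, the annotation, how introns and strand were treated and how nuclei were called. Reads shared by overlapping, antisense or closely similar genes could therefore belong to either. Coordinates are those of GENCODE M21 (GRCm38), which matched 27169 identifiers.

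Groups came from the sample titles. Nuclei were chosen as described, no doublet caller was run, and counts were summed per library. These sums entered a quasi-likelihood test in edgeR 4.0.16 (R 4.3.3), with TMM scaling and filterByExpr. P-values were adjusted by Benjamini and Hochberg's method over all genes tested, with 0.05 as the threshold. Nppb, the 7 genes of the rule and mitochondrial genes chose the nuclei and were not tested. CPM of single genes are TMM-scaled within each class of nuclei; marker sums use raw totals. The SE was obtained by dividing the size of the log2 fold change by the root of F. The difference between nuclei with and without Nppb was tested as an interaction over 8 sums with library as a block. P-values measure the spread between pools of hearts. Replicate libraries differed beyond sampling noise (chi-square per degree of freedom 9.32 for the controls and 4.57 for the cKO).

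On simulated data with the depth of the comparison without Nppb (12817 genes), the test recovered 37% of 2-fold and 84% of 4-fold changes with 3 false calls. With that of the interaction (13893 genes) it recovered 40% and 74% with 7 false calls.

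Named are the 15 highest and 15 lowest genes by log2 fold change past the threshold, without overlap between groups and with at least 10 CPM in the higher group, leaving out predicted and unnamed genes; list members past the threshold and up to 4 others of a list; the markers; Pkp2; and up to 10 genes with the smallest adjusted p of the interaction. The nuclei, members and lists were chosen with earlier results of these data known. Alternatives were DESeq2 1.42.0, other size factors, no expression filter, a replicate block, each library left out, and other choices of nuclei. Results for some genes that the naming rule picked are not reported here, although counts over all genes include them.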

Additional observations from a re-analysis of the deposited data

Results flagged for a closer look

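For 10 genes the cKO effect differed between cardiomyocyte nuclei with and without Nppb UMIs by the interaction test in edgeR, and they had the smallest adjusted p of the genes that met the limits for naming. Each value is the effect with Nppb minus the effect without, on the log2 scale. It was -0.70 for Esr1 (adjusted p = 1.76e-05), -0.43 for Myh7 (0.000391), -0.30 for Prkg1 (0.00303) and -0.61 for Angpt1 (0.00792). It was -0.92 for Dlg2 (0.00525), and 1.73 for Gadd45g (0.0129), the one of the 10 with a higher effect in nuclei with Nppb. Prkg1, cGMP-dependent protein kinase, stood at 921, 1233, 2258 and 2971 CPM in control 1, control 2, cKO 1 and cKO 2 without Nppb, and at 1240, 1402, 2289 and 2924 CPM with Nppb.

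The value was -3.15 for Fgf12 (adjusted p = 0.00078) and -2.67 for Wdr17 (0.000391). Both rested on few nuclei. In the nuclei without Nppb, 3 nuclei held 77.4% of the Wdr17 UMIs of cKO 1 and 61.9% of those of cKO 2.

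The value was -0.24 for Palld (adjusted p = 0.00424), an actin-binding protein, and -0.32 for Cmya5 (0.00657), a protein of the Z-disc region. Neither gene passed the test between groups in the nuclei without Nppb, where their log2 fold changes were -0.07 and 0.15.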

How the results depend on the processing

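With 2 libraries per group the test mainly reaches large differences, and the shallowest sum was that of cKO 1 (1490164 UMIs in 320 nuclei). The main counts were 49 higher and 96 lower genes. DESeq2 gave 46 and 96, other size factors 54 and 103, and leaving out 1 library at a time gave 46 to 72 higher and 73 to 127 lower, the remaining library of an arm being assumed to vary like the others. Without a filter on low counts 71 were higher and 220 lower. Among nuclei with at least 5000 UMIs the counts were 21 and 61, with at least 8% of UMIs from the 7 genes 1 and 2 (2636 genes tested), and without an Esr1 UMI 28 and 50. The interaction called 42 genes, 1 with at least 5000 UMIs, 64 without the filter and 33 for nuclei with at least 2 Nppb UMIs. The share without Nppb became 61.7%, 71.0%, 22.0% and 25.6% with at least 5000 UMIs and 82.9%, 89.1%, 42.5% and 53.3% after thinning. It became 69.9% in control 1 with at most 1% mitochondrial UMIs, and 86.7%, 37.1% and 40.7% in control 1, cKO 1 and cKO 2 with at least 8% from the 7 genes. The direction turned for Fgf12 without nuclei holding an Nppa UMI (-0.60) and for Pkp2, not called, with at least 5000 UMIs (-0.0022). Of the 30 highest and lowest named genes, 6 passed under every one of the 15 settings in which they were tested, and 24 did not. Of all named genes, 20 were lost without Esr1 UMIs, 12 with at least 5000 UMIs, 10 after thinning and 9 with at most 1% mitochondrial UMIs; the cause was not tested.

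The labels state no shared batch for the replicate numbers. Over 12817 genes the deviation of replicate 1 from replicate 2 correlated between controls and cKO (r = 0.384, rho = 0.416), a hint from the data only. A fit with a replicate block called 766 higher and 951 lower genes, and 49 and 96 of these were the genes called without it.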

Other observations

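On chromosome 19, 3 of the 36 tested genes within 3 Mb of A1cf were higher in the cKO nuclei without Nppb: A1cf, Lipo2 and Prkg1. Of all genes tested, 0.382% were higher. The window was chosen after these values were seen. A1cf (31868764 to 31948995) had 0, 4, 12 and 34 UMIs in control 1, control 2, cKO 1 and cKO 2, Lipo2 (33719670 to 33751359) had 0, 1, 8 and 11, and Prkg1 (30564489 to 31765033) had 3456, 11115, 3442 and 7871. In cKO 1 and cKO 2, nuclei with Esr1 UMIs held 12 and 33 of the A1cf UMIs and 5 and 7 of the Lipo2 UMIs. Such nuclei were 75.9% and 83.3% of the chosen cKO nuclei, and a link to Esr1 was not tested. Prkg1 stood at 921, 1233, 2258 and 2971 CPM (log2 fold change 1.28, adjusted p = 0.00607). Lipo2 has close copies nearby, and its reads are uncertain between them.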
